A study of Mus musculus with 9 samples.

Results

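The YAP/TAZ pathway genes are 9 mouse genes taken by name: Yap1 and Wwtr1, which encode the coactivators YAP and TAZ, the partner genes Tead1 and Tead4, the inhibitor genes Lats2 and Amotl2, and the target genes Ccn1 (also called Cyr61), Ccn2 (also called Ctgf) and Ankrd1. They are 9 of the 21887 protein-coding genes that RefSeq places on the assembled chromosomes of GRCm38.p6. Each gene was studied over its annotated span with 2 kb added on either side, called its window here, and the 9 windows held 1041 of the 1309635 regions in the deposited table. The table comes from ACT-seq, in which an antibody brings a Tn5 transposase to chromatin carrying a histone mark, so that DNA near the mark is cut, tagged and sequenced. One antibody was to the promoter mark H3K4me3 and the others to acetyl marks, namely H2AK5ac, H4K8ac and, on H3, H3K9ac, H3K14ac, H3K18ac, H3K23ac and H3K27ac, with IgG as the control. All 9 libraries came from endothelial cells isolated from lungs of wild-type (WT) mice, and the labels used here give no treatment, strain, age or number of animals. Each target had 1 library, so no value below has a replicate error and no test was run.

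YAP and TAZ are transcriptional coactivators that do not bind DNA themselves. In the Hippo pathway a kinase cascade that ends in LATS kinases phosphorylates them and keeps them out of the nucleus, and when this restraint is lifted they enter the nucleus and act on genes through TEAD proteins. Several of the genes they switch on, among them Lats2 and Amotl2, encode inhibitors of the pathway and so close a feedback loop. In endothelial cells YAP and TAZ are known for responding to blood flow and matrix stiffness and for their part in vessel sprouting.

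The library totals over the table ranged across marks from 1477463 reads for H3K4me3 to 10044130 reads for H3K14ac, against 365999 reads for IgG. The table joins regions of 8 peak lists under shared identifiers, and the lists carry numbers instead of names. Each list is called here by the library whose reads were densest in it, for example "H3K14ac-rich", which is a measured property and not a record of how the list was made. Of 8 endothelial marker genes, 7 had peaks of all 8 lists, including Cdh5, Pecam1 and Kdr, against 1 of 6 lung epithelial genes, 1 of 6 leukocyte genes and 1 of 6 mesenchymal genes. Peaks of any list covered a median of 17.8% of the window in the endothelial genes, 13.4% in the epithelial, 6.90% in the leukocyte and 12.1% in the mesenchymal genes. The protein-coding background was 44.6% of windows with every list and a median covered share of 8.34%. By lists, the epithelial, leukocyte and mesenchymal sets lay below this background. By covered share, the epithelial and mesenchymal medians lay above it and the leukocyte median below it. Cldn5, an endothelial tight junction gene singled out after its values were seen, was the only one of these markers with no peak in its window. Among genes of other cells, Sftpc, which encodes a surfactant protein, had all 8 lists over 22.6% of its window, Sftpb had 6 lists and Epcam 3, Ptprc had 4, Cd68 7 and Itgax 4, and Col1a1 had 7, Col1a2 2 and Pdgfra 7. Singled out after their values were seen, the leukocyte gene Csf1r and the mesenchymal gene Pdgfrb had all 8 lists, and peaks covered 26.0% of the window of Tagln, a smooth muscle gene. The part of other lung cells in the values below was not tested.

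RefSeq promoters, from 250 bases before to 50 bases after a transcript start, were at hand for 6 of the 9 genes. They are shown because each of the 6, at its first listed start, holds the TEAD core motif, GGAATG or its reverse complement CATTCC, which is printed in capitals. Sequences run 5′ to 3′ on the strand of the gene.
Yap1 (GRCm38.p6, minus strand, chr9:8004547-8004846): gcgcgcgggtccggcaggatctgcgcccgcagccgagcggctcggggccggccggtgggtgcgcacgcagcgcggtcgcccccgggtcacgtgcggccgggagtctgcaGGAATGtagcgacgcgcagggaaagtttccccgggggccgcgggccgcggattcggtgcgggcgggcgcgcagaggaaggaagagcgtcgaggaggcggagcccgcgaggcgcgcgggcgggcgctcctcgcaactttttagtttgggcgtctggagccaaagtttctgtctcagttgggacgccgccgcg
Wwtr1 (GRCm38.p6, minus strand, chr3:57575861-57576160): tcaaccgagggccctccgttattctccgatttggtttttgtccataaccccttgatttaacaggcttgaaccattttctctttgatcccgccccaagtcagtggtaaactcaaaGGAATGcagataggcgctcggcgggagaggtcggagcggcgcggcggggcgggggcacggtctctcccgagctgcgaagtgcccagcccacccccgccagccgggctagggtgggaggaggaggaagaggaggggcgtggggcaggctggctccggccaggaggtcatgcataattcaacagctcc
Lats2 (GRCm38.p6, minus strand, chr14:57746074-57746373): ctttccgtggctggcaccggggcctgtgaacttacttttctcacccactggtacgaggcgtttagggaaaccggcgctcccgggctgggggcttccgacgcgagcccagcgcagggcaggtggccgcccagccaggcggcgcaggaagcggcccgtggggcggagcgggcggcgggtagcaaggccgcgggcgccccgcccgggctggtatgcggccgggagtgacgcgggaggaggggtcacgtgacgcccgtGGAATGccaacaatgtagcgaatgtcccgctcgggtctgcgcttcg
Amotl2 (GRCm38.p6, plus strand, chr9:102717554-102717853): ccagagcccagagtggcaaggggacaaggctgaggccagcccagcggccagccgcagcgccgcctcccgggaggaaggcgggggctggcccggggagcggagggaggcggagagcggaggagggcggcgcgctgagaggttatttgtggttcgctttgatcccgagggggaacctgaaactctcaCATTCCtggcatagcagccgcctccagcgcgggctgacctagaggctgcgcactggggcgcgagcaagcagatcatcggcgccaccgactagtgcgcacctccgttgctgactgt
Ccn1 (GRCm38.p6, minus strand, chr3:145649936-145650235): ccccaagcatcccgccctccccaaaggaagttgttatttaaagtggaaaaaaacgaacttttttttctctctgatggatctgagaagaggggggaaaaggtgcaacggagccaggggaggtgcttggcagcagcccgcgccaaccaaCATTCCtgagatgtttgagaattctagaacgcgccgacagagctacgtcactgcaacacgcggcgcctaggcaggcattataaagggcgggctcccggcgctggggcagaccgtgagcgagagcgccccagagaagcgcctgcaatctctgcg
Ankrd1 (GRCm38.p6, minus strand, chr19:36119795-36120094): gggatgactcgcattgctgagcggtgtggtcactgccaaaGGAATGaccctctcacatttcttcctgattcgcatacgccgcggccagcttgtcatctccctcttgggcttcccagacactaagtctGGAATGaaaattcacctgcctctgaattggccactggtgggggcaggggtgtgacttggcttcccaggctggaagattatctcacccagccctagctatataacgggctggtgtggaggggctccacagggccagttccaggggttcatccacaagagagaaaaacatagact

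The motif was found on either strand in 6 of these 6 promoters, whereas 13.4% of the first listed promoters of 17492 protein-coding genes held it. Its 2 forms cannot overlap one another, and the search asked for an exact match of 6 letters. The first base of the match lay 141 bases before the start in Yap1, 136 bases before it in Wwtr1, 65 bases before it in Amotl2 and 103 bases before it in Ccn1. The Ankrd1 promoter held 2 matches, 210 and 123 bases before the start, and 1.12% of the 17492 promoters held 2 or more. In Lats2 the match began at position 5 of the transcript, counting the start as position 1, and the promoter of the second listed Lats2 start held no match. Peaks of all 8 lists lay over the match in Wwtr1 and Amotl2. Peaks of 7 lists lay over it in Yap1, where the H3K23ac-rich list was missing, and over the matches in Lats2 and Ankrd1, where the H2AK5ac-rich list was missing. In Ccn1 the match lay under 6 lists, all but the H3K23ac-rich and H2AK5ac-rich lists. The peaks were not confined to the match. In the first Wwtr1 promoter the H2AK5ac-rich list covered 268 of the 300 bases and every other list all 300. In Ccn1 the lists covered from 114 (H2AK5ac-rich) to 267 (H3K4me3-rich) of the 300 bases. How often peaks lay over a match in other promoters was not counted. A match describes these letters only and does not show that a TEAD protein was bound.

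All 9 genes had peaks of all 8 lists in their windows, against 44.6% of all protein-coding genes. With only the peaks wider than the commonest width of their list, 7 of the 9 genes had all 8 lists, against 18.6% of all protein-coding genes. Windows of long genes can hold more peaks, and the median window was 60.5 kb for the 9 genes and 21.2 kb for all protein-coding genes, so the share of each window under peaks was compared as well. Peaks of any list covered a median of 18.2% of the window in the 9 genes, from 9.33% in Yap1 to 62.4% in Ccn1, against a median of 8.34% over all protein-coding genes. The number of peaks per kb had a median of 1.87 in the 9 genes and 0.70 in all protein-coding genes. All 9 genes therefore lay above the protein-coding median of the covered share.

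The same held list by list, with a single exception. The median share covered in the 9 genes, beside that of all protein-coding genes, was 4.87% against 1.73% for the H3K4me3-rich list and 6.25% against 0.72% for the H3K9ac-rich list. It was 6.05% against 2.02% for the H3K18ac-rich list, 6.32% against 1.41% for the H3K23ac-rich list, and 4.71% against 1.86% for the H3K27ac-rich list. It was 6.52% against 2.15% for the H4K8ac-rich list and 3.26% against 0.25% for the H2AK5ac-rich list. In each of these 7 lists all 9 genes lay above the protein-coding median. For the H3K14ac-rich list the medians were 8.69% against 3.87%, and 8 of the 9 genes lay above the protein-coding median, the exception being Yap1 at 3.64%. Having a peak of a given list was common: of all protein-coding genes 55.2% had an H2AK5ac-rich peak, 59.2% an H3K9ac-rich, 69.6% an H3K4me3-rich, 69.7% an H3K23ac-rich, 71.6% an H3K27ac-rich, 75.4% an H4K8ac-rich, 77.3% an H3K18ac-rich and 89.8% an H3K14ac-rich peak.

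**Figure D1:**
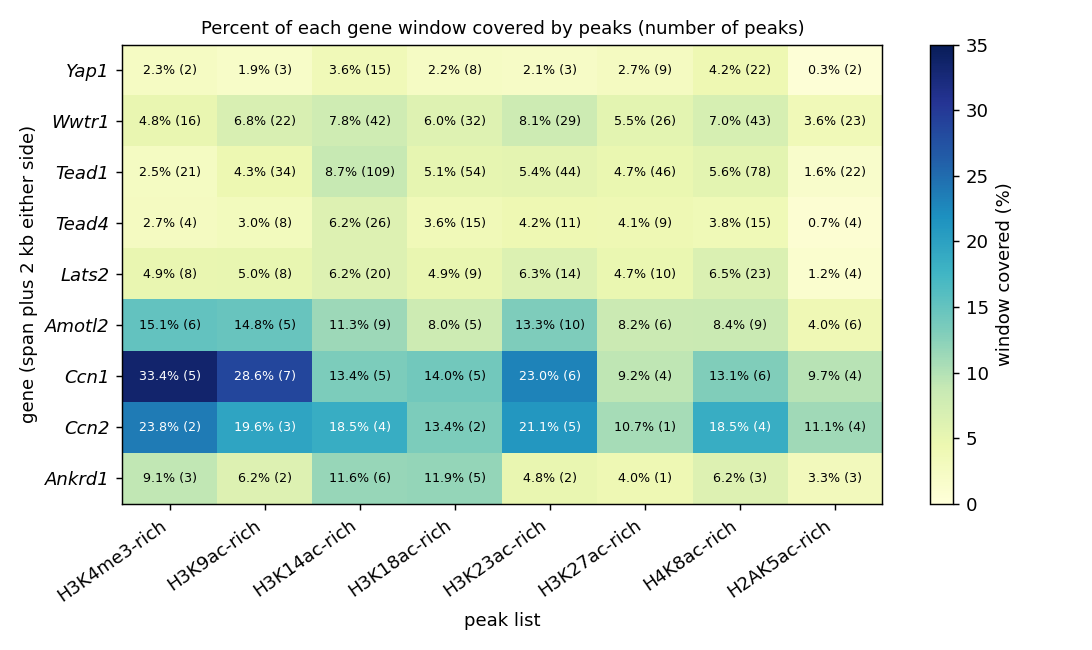
Percent of each gene's window (gene span with 2 kb on either side) covered by peaks of each list, with genes in rows by role, lists in columns and the number of peaks in parentheses. The highest values are those of Ccn1, 33.4% under H3K4me3-rich peaks and 28.6% under H3K9ac-rich peaks.

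**Figure D2:**
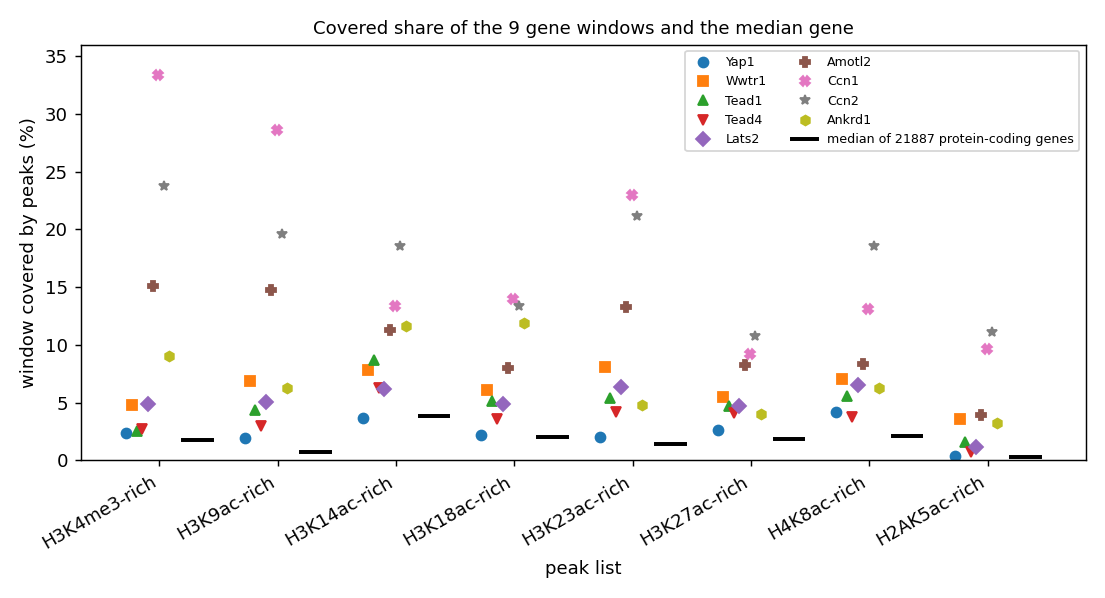
Percent of the window covered by peaks of each list, with each of the 9 genes as a point and the median of 21887 protein-coding genes as a black line to the right of the points. In the H3K14ac-rich list Yap1, at 3.64%, lies under the protein-coding median of 3.87%, and in the other 7 lists all 9 points lie above it.

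The lists met at a few places in each gene. When peaks of any list that share at least 1 base were joined, the 9 windows held 440 joined regions. Of these, 272 regions, or 61.8%, held peaks of 1 list, 49 held peaks of 6 or more lists, and 23 held peaks of all 8. Every one of the 9 genes had at least 1 region of all 8 lists, against 31.1% of protein-coding genes. These 23 regions were 385 to 2034 bp long, with a median of 862 bp, and the centre of each lay inside the gene span. Joining does not mean that all 8 lists share a base: at least 1 base lay under all 8 lists in 7 of the 9 genes, against 23.7% of protein-coding genes, and Ccn1 and Ankrd1 had none.

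Yap1 encodes YAP and spans chr9:7931999-8004638, with its start at the higher coordinate. Of its 64 peaks, 18 were centred within 2 kb of the start. The region of all 8 lists at the start, chr9:8003231-8004932, was the only one of its 41 joined regions with 6 or more lists, and 35 of the 41 held 1 list. In the 4 kb centred on the Yap1 start, H3K4me3-rich peaks covered 1637 bp, H3K9ac-rich peaks 1254 bp and H3K23ac-rich peaks 1373 bp, against protein-coding medians of 541 bp, 0 bp and 206 bp. Among protein-coding genes with a listed start these Yap1 values stood at percentiles 94.0, 92.5 and 94.8. Over the 8 lists the Yap1 start window stood at percentiles 88.7 to 97.4. Over the whole window of 76.6 kb, by contrast, the covered share in the 8 lists stood at percentiles 46.9 to 69.4, nearer the protein-coding median. The number of bases under all 8 lists was 6.

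Wwtr1 encodes TAZ, the other coactivator, and spans chr3:57455644-57575910. Its start region, chr3:57574758-57576791, was the longest of the 23 regions of all 8 lists. H3K9ac-rich peaks covered 2311 bp of the 4 kb around the Wwtr1 start and H3K14ac-rich peaks 1570 bp, both at percentile 99.9, and H3K4me3-rich peaks covered 2205 bp, at percentile 99.4. Both genes had peaks along the body, but regions of many lists were more numerous in Wwtr1. Of its 79 joined regions, 14 held 6 or more lists and 5 held all 8, and those inside the gene had their centres 20.11, 31.62, 65.48 and 74.05 kb from the start. Joined regions of 5 or more lists that lacked the H3K4me3-rich list numbered 8 in Wwtr1 and 0 in Yap1, and 1.04% of protein-coding genes had 8 or more. The bases under all 8 lists came to 1322 in Wwtr1, against a 90th percentile of 172 over protein-coding genes. The covered share of the Wwtr1 window stood at percentiles 73.4 (H3K4me3-rich) to 94.2 (H2AK5ac-rich).

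**Figure D3:**
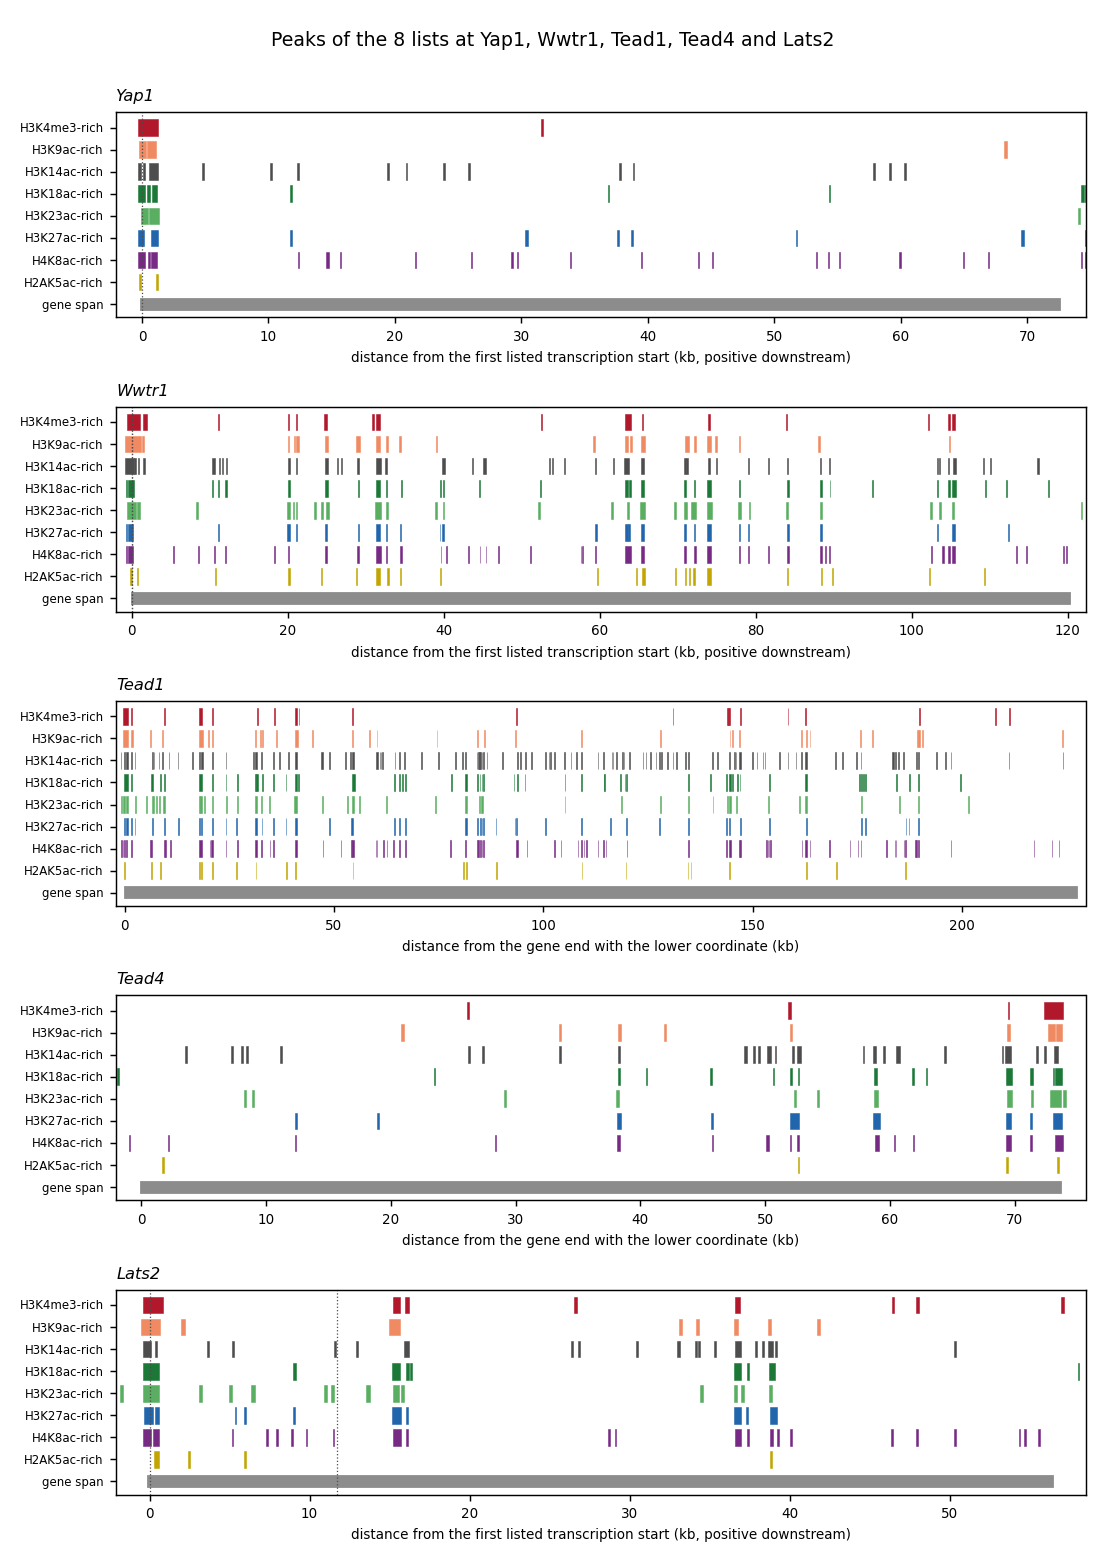
Peaks of the 8 lists along the windows of the 5 longer genes, plotted as kb from the first listed start (for Tead1 and Tead4, from the gene end with the lower coordinate), with 1 row per list, the gene span in grey and listed starts as dotted lines. Yap1 has peaks of all 8 lists joined at 1 place, at its start, whereas Wwtr1 has 5 such places and Tead1 has 8.

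Tead1 and Tead4 encode DNA-binding proteins through which YAP and TAZ reach their genes. Tead1 spans chr7:112679356-112906784 and was the longest of the 9 genes, with 408 peaks in 183 joined regions. It had 8 regions of all 8 lists: chr7:112678877-112680213 at the end with the lower coordinate, and 7 others between 17.70 and 162.52 kb from that end. Joined regions of 5 or more lists without the H3K4me3-rich list numbered 12. H3K14ac-rich peaks covered 8.69% of the window, at percentile 89.8, and H3K4me3-rich peaks 2.55%, at percentile 58.3. In the 4 kb around the lower end, H3K4me3-rich peaks covered 1640 bp and H3K9ac-rich peaks 1547 bp, while no list had a peak in the 4 kb around the higher end.

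Tead4 spans chr6:128227143-128300813 and had 92 peaks, or 1.18 per kb, against 1.76 per kb in Tead1. Its covered share stood at percentiles 59.4 to 76.1 over the 8 lists. The 3 regions of all 8 lists lay toward the end with the higher coordinate, at chr6:128299472-128301232, chr6:128296366-128296902 and chr6:128278999-128279988. Around that end H3K4me3-rich peaks covered 1523 bp of 4 kb and H2AK5ac-rich peaks 129 bp. Wwtr1, Tead1 and Tead4 were the 3 of 9 genes with 3 or more regions of all 8 lists, against 2.9% of protein-coding genes, and Wwtr1 and Tead1 had 5 or more, against 0.768%. All 3 windows are long: per 100 kb, Wwtr1 had 4.02, Tead4 3.86 and Tead1 3.46 such regions, below the 90th percentile of 6.15 over protein-coding genes.

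Lats2 encodes a kinase that phosphorylates YAP and TAZ, and Amotl2 encodes an angiomotin-family protein that holds YAP outside the nucleus. Lats2 spans chr14:57689662-57746212, and its window also holds the predicted coding gene Gm52140 and the snoRNA gene Gm26440. Its only region of all 8 lists, chr14:57745308-57746650, holds the first listed start, and 31 of its 46 joined regions held 1 list. In the 4 kb around that start H3K18ac-rich peaks covered 1017 bp (percentile 94.1) and H2AK5ac-rich peaks 327 bp (percentile 93.9), but no H2AK5ac-rich peak reached the 300 bases of the first promoter. The 300 bases of the second listed promoter, chr14:57734369-57734668, touched peaks of the H3K14ac-rich, H3K23ac-rich and H4K8ac-rich lists and of no other.

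Amotl2 spans chr9:102717091-102733418 and was denser, with 56 peaks or 2.75 per kb and 30.9% of its window covered. Each of the 8 lists covered a share of the Amotl2 window at percentile 90.6 or above, with H3K9ac-rich peaks at 14.8% (percentile 97.0). It had a region of all 8 lists at the start, chr9:102717171-102718624, and another, chr9:102726091-102726798, 8.64 kb into the gene. The H3K4me3-rich list had wide peaks at both, of 1452 bp at the start and 474 bp inside the gene.

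The 3 target genes are short. Ccn1 and Ccn2 encode secreted matricellular proteins that bind integrins, and Ankrd1 encodes an ankyrin repeat protein known from heart muscle. Ccn1 spans chr3:145646971-145649985, and its window of 7.02 kb held 42 peaks, or 5.99 per kb, with 34 of them centred within 2 kb of the start. Its window also holds the lncRNA gene Gm17501. H3K4me3-rich peaks covered 33.4% of the Ccn1 window, H3K9ac-rich peaks 28.6% and H2AK5ac-rich peaks 9.67%, each at percentile 99.7. The lowest rank among the 8 lists was that of the H3K27ac-rich list, at 9.21% and percentile 94.5. The Ccn1 start region of all 8 lists, chr3:145648911-145650344, was made of 16 peaks that formed a chain, and no base in it lay under all 8.

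In a short window most of the sequence is near the start, so the 4 kb around the start were also compared with those of long genes. There Ccn1 had 2185 bp under H3K4me3-rich peaks, at percentile 99.3, close to the 2205 bp of Wwtr1. H2AK5ac-rich peaks covered 678 bp around the Ccn1 start, at percentile 99.6, whereas H3K27ac-rich peaks covered 646 bp, at percentile 75.1, and H4K8ac-rich peaks 530 bp, at percentile 65.1. The lists thus ranked unequally at Ccn1.

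Ccn2 spans chr10:24595442-24598683, in a window of 7.24 kb that also holds the lncRNA gene Gm15270. Its 25 peaks covered 41.7% of the window. The region of all 8 lists at the end with the lower coordinate, chr10:24595229-24597048, was 1820 bp long and held 17 of the 25 peaks. Of the 9 genes Ccn2 had the largest share of its window under all 8 lists at once, 365 bp or 5.04%. Around that end H3K4me3-rich peaks covered 1574 bp of 4 kb, H3K9ac-rich peaks 1419 bp and H4K8ac-rich peaks 1336 bp. Ccn1, whose peaks also overlap, had 0 bases under all 8 lists.

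Ankrd1 spans chr19:36111965-36119844 and had the lowest values of the 6 genes around its listed start. H3K4me3-rich peaks covered 763 bp of the 4 kb, at percentile 57.3, H3K27ac-rich peaks 472 bp, at percentile 61.3, and H4K8ac-rich peaks 401 bp, at percentile 55.9. All 6 genes with a listed start, Ankrd1 included, had peaks of all 8 lists in the 4 kb around it, against 28.3% of protein-coding genes with a listed start. Taken list by list, 34.4% of those protein-coding genes had an H2AK5ac-rich peak there, 48.6% an H3K9ac-rich, 53.6% an H3K23ac-rich, 59.4% an H3K4me3-rich, 59.7% an H3K27ac-rich, 62.3% an H4K8ac-rich, 63.4% an H3K18ac-rich and 77.4% an H3K14ac-rich peak. The Ankrd1 start region, chr19:36119251-36120286, was its only region of all 8 lists. The widest H3K18ac-rich peak of Ankrd1, 673 bp at chr19:36110104-36110776, lay past the far end of the gene and touched no peak of another list.

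**Figure D4:**
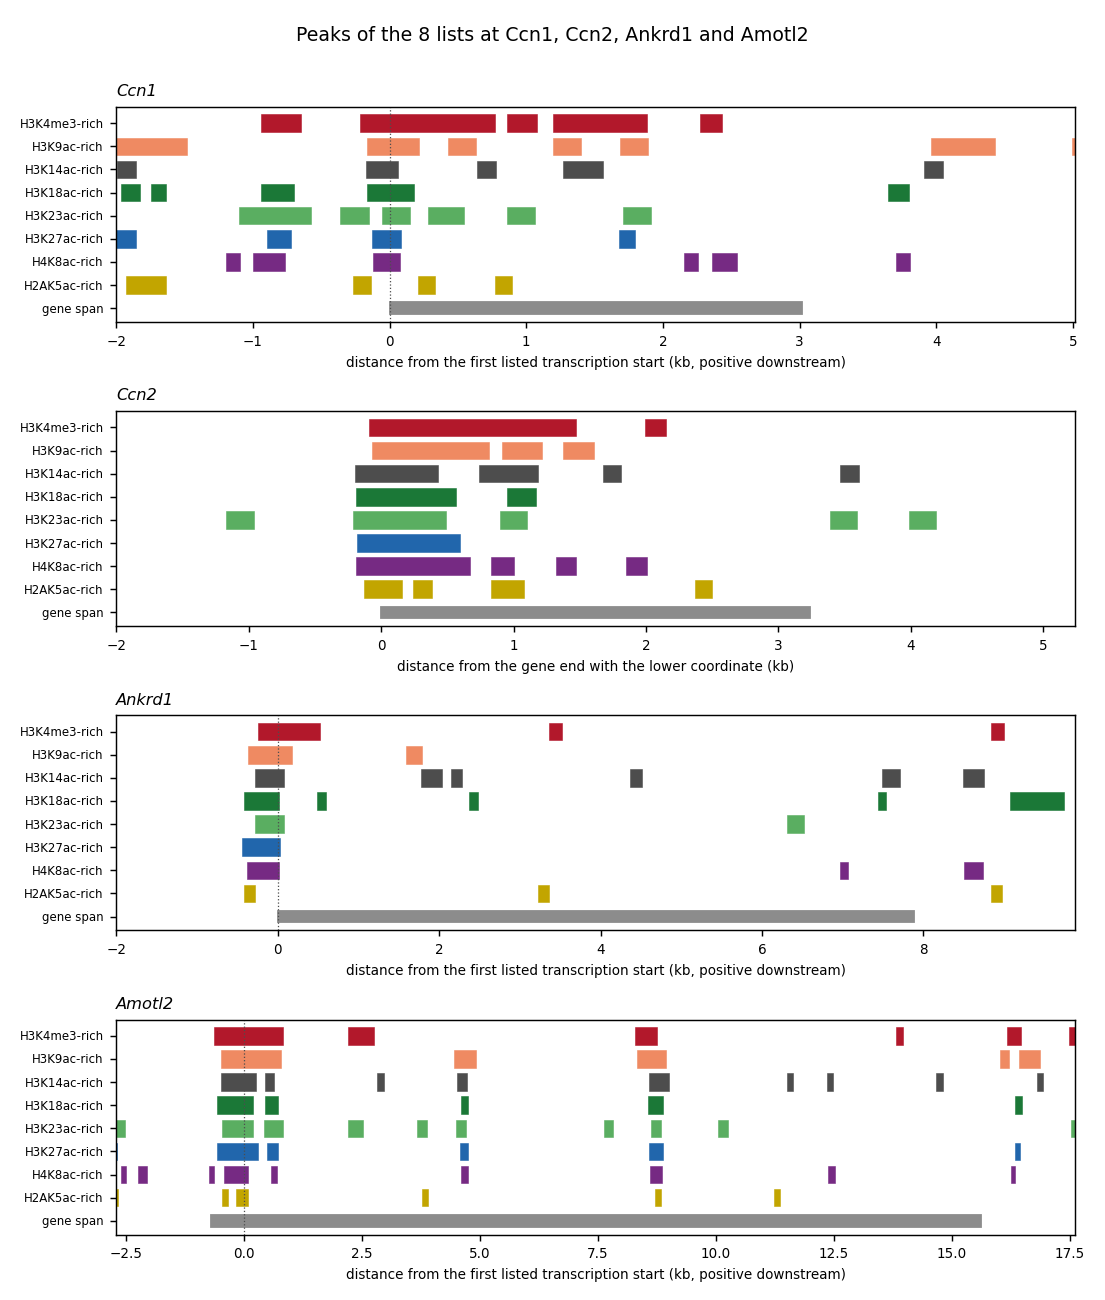
Peaks of the 8 lists along the windows of the 4 shorter genes, plotted as kb from the listed start (for Ccn2, from the gene end with the lower coordinate), with 1 row per list, the gene span in grey and the start as a dotted line. Peaks of the 8 lists stack at the lower end of Ccn2, where 365 bp lie under all 8, and form a chain at the start of Ccn1, where no base does.

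Reads were examined apart from peaks. The deposited counts are per identifier, so reads could be given to a region only where 1 region of the identifier had bases that no other identifier covers. The 9 windows held 182 such regions, with 21082 bases, mostly from the H3K14ac-rich list. Ccn2 had none, and Ccn1 had 1. None of the 182 lay in a joined region that holds a listed start, so reads at the listed starts were not examined. Over these regions H3K27ac had 943 reads, or 44.7 per kb, against 18.7 per kb over the same kind of region in all protein-coding windows. H4K8ac had 408 reads, or 19.4 per kb against 4.59 per kb, H3K18ac had 337 reads, or 16.0 per kb against 5.14 per kb, and H3K23ac had 220 reads, or 10.4 per kb against 2.09 per kb. H3K14ac had 3004 reads, or 142.5 per kb against 129.7 per kb. At least 1 H3K14ac read lay in 76.9% of the 182 regions, against 86.9% over protein-coding windows. Of the 182 regions 172 were of the H3K14ac-rich list, as were 166395 of the 168765 over protein-coding windows. Both sides were thus largely picked as H3K14ac-rich peaks, and the H3K14ac difference cannot be ranked against those of the other marks. Summed over the 182 regions, reads per kb of these 5 marks were thus higher than over protein-coding windows, with 1 library behind each value. Tead1 held 10791 of the 21082 bases, and the H3K23ac reads lay in 15 of the 182 regions. A single region held all 53 H3K23ac reads of Amotl2, another all 33 of Lats2, and another 46 of the 55 of Tead1. In Yap1 H3K27ac, H4K8ac, H3K18ac and H3K23ac had fewer reads per kb than over protein-coding windows. For H3K27ac, H4K8ac and H3K23ac this shortfall in Yap1 lay within counting error. H3K14ac had 129.0 reads per kb in Tead4, close to the 129.7 per kb over protein-coding windows. In Ankrd1 H3K14ac had 84 reads (Poisson interval 67.0 to 104.0), or 117.2 per kb, a shortfall within counting error. Ccn1 had 0 reads of H3K14ac and of H3K23ac, but its 1 region had only 52 unshared bases. That is too few bases to show a shortfall of H3K23ac, and for H3K14ac the value rests on that region alone.

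For H3K4me3, H3K9ac and H2AK5ac, Amotl2 gave more reads than the other genes together. Without Amotl2 the H3K4me3 and H3K9ac values were lower but still above those over protein-coding windows. H3K4me3 had 291 reads, or 13.8 per kb against 3.73 per kb, and 6.19 per kb without Amotl2. H3K9ac had 187 reads, or 8.87 per kb against 1.06 per kb, and 1.95 per kb without Amotl2. A 138 bp region centred 2888 bp into Amotl2, chr9:102720624-102720761, held 161 H3K4me3 reads, 147 H3K9ac reads, 53 H3K23ac reads, 30 H3K14ac reads and 19 H3K27ac reads, against 0 IgG reads. It lay just past an H3K4me3-rich peak that ended at 102720561. H2AK5ac had 20 reads, or 0.95 per kb against 1.62 per kb over protein-coding windows, and all 20 came from another Amotl2 region, chr9:102729304-102729441.

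Gene by gene, Tead1, which held 10791 of the 21082 bases, had 1507 reads for H3K14ac, 480 for H3K27ac, 143 for H4K8ac, 106 for H3K18ac, 55 for H3K23ac and 27 for H3K4me3. Per kb its H3K27ac reads, 44.5, were below the 72.5 of Lats2. Yap1 had 234 H3K14ac reads, 24 H3K27ac reads and 4 H4K8ac reads, and 0 reads of the other 5 marks. The 12 regions of Yap1 lay 4844 to 60348 bp from its start, so these counts do not describe the Yap1 start. Wwtr1 had 395 H3K14ac reads, 119 H3K27ac reads, 108 H4K8ac reads, 58 H3K18ac reads, 53 H3K23ac reads and 19 H3K9ac reads. Per kb of unshared bases, H3K14ac had 142.2 reads in Wwtr1 and 147.7 in Yap1, whereas H3K27ac had 42.9 reads in Wwtr1 and 15.2 in Yap1, and H4K8ac had 38.9 reads in Wwtr1 and 2.53 in Yap1. Of the 28 regions of Wwtr1, 26 were of the H3K14ac-rich list, as were all 12 of Yap1, and over those alone H4K8ac had 24.5 reads per kb in Wwtr1, an alternative chosen after seeing the data. For Tead1 the same step left 63 of the 143 H4K8ac reads, or 6.15 per kb against 13.3 per kb over all its regions. Ankrd1 had 84 H3K14ac reads, 61 H3K4me3 reads and 48 H3K18ac reads.

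IgG had 0 reads in the 182 regions, against 2.38 reads per kb over all protein-coding windows, where 0.08% of such regions held at least 1 IgG read. At the depth of the IgG library a count of 0 was given a floor of 3 reads in a window, or 8.20 CPM (reads scaled by the library total), which covers counting error only. The 95% Poisson interval of a count of 0 ends at 3.69 reads, and against that the folds below would be lower. Against that floor H3K27ac was 23.1-fold higher in Tead1 and H3K14ac 18.3-fold higher, and H3K4me3 was 13.5-fold higher in Amotl2. In Yap1 H3K14ac was 2.84-fold higher, while the 24 H3K27ac reads of Yap1 (95% Poisson interval 15.4 to 35.7), or 9.47 CPM, lay too near the floor for a fold. These folds leave out the counting error of the mark's own reads, and the depth of IgG limits what they can show. They set the summed reads of a gene against 1 fixed floor, so they grow with the bases measured and do not rank genes. Per kb, H3K14ac had 139.7 reads in Tead1 and 147.7 in Yap1. As most regions were H3K14ac-rich peaks, the H3K14ac folds describe regions already rich in that mark. Identifiers with 10 or more reads over a mark and IgG were called at a 2-fold excess of CPM, and the calls were 110 of 110 for H3K14ac (99.9% of all such identifiers), 34 of 34 for H3K27ac (98.9%) and 14 of 14 for H4K8ac (96.4%). They were 9 of 9 for H3K18ac (97.0%), 6 of 6 for H3K23ac (90.6%), 5 of 5 for H3K4me3 (94.9%), 3 of 3 for H3K9ac (83.3%) and 1 of 1 for H2AK5ac (87.4%). With IgG at 0 in all 182 regions, these calls rest on the reads of the mark alone and do not show an excess over the IgG floor. The shares are near the background and single out nothing about the 9 genes.

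**Figure D5:**
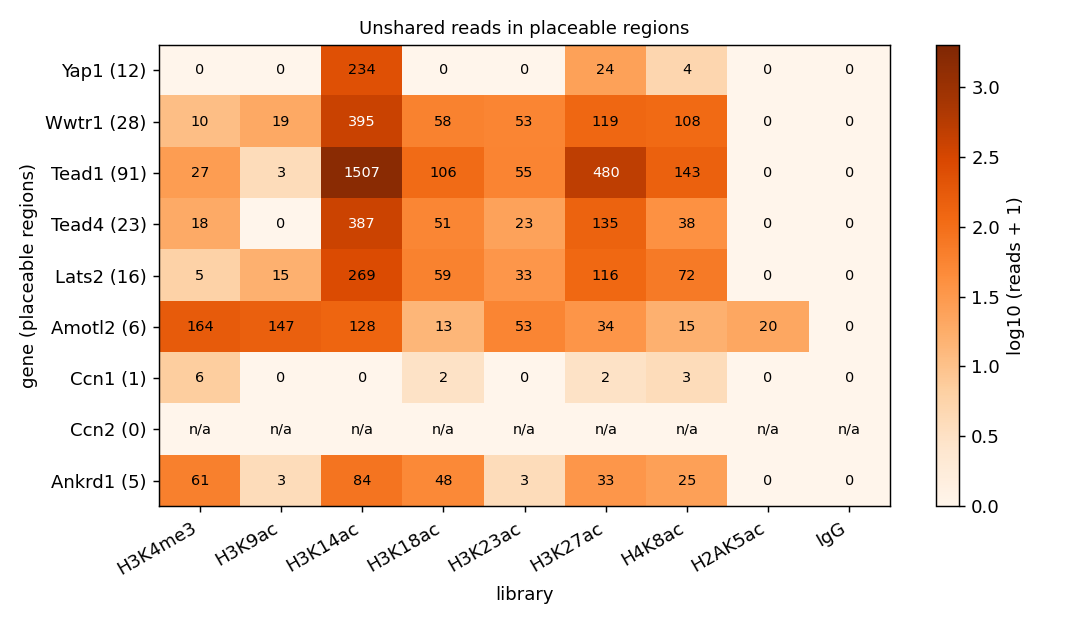
Reads of each library (columns) in the regions of each gene (rows) that could be given reads, with the number of such regions beside the gene name and colour on a log10 (reads + 1) scale; Ccn2 has no such region. IgG is 0 in the other 8 genes, and the high H3K4me3 and H3K9ac values belong to Amotl2, where 1 region holds 161 and 147 reads of these marks. None of the regions lies in a joined region that holds a listed start.

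Other genes of the pathway were read the same way. Of 17 genes for Hippo kinases and scaffolds, 15 had peaks of all 8 lists, and peaks covered a median of 10.8% of their windows, against 8.34% over all protein-coding genes. The most covered were Ajuba, which encodes a LIM protein that binds LATS kinases, at 32.3%, Frmd6, at 22.2%, and Sav1, which encodes a scaffold of the upstream kinases, at 19.9%. Mob1b and Wtip had peaks of 7 lists, and Taok1, which encodes an upstream kinase, had all 8 over 4.83% of its window.

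Of 13 nuclear partners and angiomotins, 9 had peaks of all 8 lists, with a median of 11.8% of the window covered. Vgll4, which encodes a competitor of YAP for TEAD proteins, was highest at 23.9%, followed by Ptpn14 at 19.9% and Ywhab, which encodes a 14-3-3 protein, at 15.2%. Vgll1 and Vgll2, which encode other TEAD-binding cofactors, had peaks of 1 list each, and Amot had 7 lists over 4.49% of its window. Beside the 30.9% of Amotl2 in a window of 20.3 kb, Amotl1 had 14.98% in 125.0 kb and Amot 4.49% in 63.5 kb; Amotl1 was named after its value was seen.

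Of 22 further YAP/TAZ targets, 17 had peaks of all 8 lists, and the median covered share, 18.5%, was close to the 18.2% of the 9 genes. Edn1, which encodes the vasoconstrictor endothelin, had 42.0% of its window covered, and Thbs1, which encodes thrombospondin, 31.3%. Igfbp3 had peaks of 5 lists, and Ccdc80 and Nt5e had 7 lists each, over 10.7% and 11.4% of their windows.

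Genes most like a member were taken by the percentiles of covered share over the 8 lists, as the Euclidean distance in percentile points. Those nearest to Ccn2 were Ftl1 at 1.78, Tbcc at 1.98 and Srsf2 at 2.03. Those nearest to Ccn1 were Ddit4 at 3.23, Tmem253 at 3.26 and Irf2bp2 at 3.27. Those nearest to Yap1 were farther off, with Slc35d1 at 10.21, Senp6 at 11.36 and Rap1a at 11.51. The distance of Yap1 to its nearest gene was thus the largest of these 3 members, but that of Ankrd1 was larger still, at 13.7.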

How the data were processed

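Per the file header, the deposited table holds whole-number read counts made by the authors with featureCounts 2.0.6 on paired-end data, without strand, each mate counted singly and reads touching more than 1 identifier discarded. The submitters' processing notes name Trim Galore, STAR, MACS2 and the build mm10 (GRCm38.p6). Peak thresholds are not given in the sources used. Identifiers join regions of 8 numbered lists, and the lists were separated by genome order without overlap and by region width; 0 of 578465 identifiers broke the order, and order alone gave 1460 of 1309635 regions another list. Each list was called by its densest library over bases no other identifier covers. Gene spans and promoters are RefSeq's. Reads scaled by library size (CPM) used library totals and a prior count of 2; Poisson intervals (95%) cover counting error only. Counts were checked base by base on random samples of the deposited regions and of gene windows, and the list split was repeated after random regions were dropped. The members, gene lists and tests were chosen with earlier results of these data known; joined regions, windows around starts and the motif were added with the data in view. Named pathway genes are the 3 with the most and the 3 with the fewest lists, ties broken by covered share, and 1 gene that this rule picks is not reported here; each member's 3 nearest genes were found, and those of Yap1, Ccn1 and Ccn2 are given. Python 3.11.15, numpy 2.4.6, pandas 2.3.3, scipy 1.17.1 and edgeR 4.0.16 (trimmed mean of M-values, TMM, as an alternative) were used.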

Additional observations from a re-analysis of the deposited data

How the results depend on the processing

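Peaks wider than the commonest width of their list numbered 504 of the 1041 and covered 59859 bp of the 110180 bp; with these alone 7 of the 9 genes had all 8 lists, against 18.6% of protein-coding genes, and Yap1 and Ankrd1 lacked the H2AK5ac-rich list. Dropping the minimum of 10 reads raised the pairs of identifier and mark called over IgG to 395, against 182. With no flank, a 5 kb flank, peaks kept only where 50% of the peak lay in the window, or lists split by order alone, all 9 genes kept 8 lists and the peaks numbered 976, 1116, 1034 and 1041. The 182 calls were also found with TMM scaling, with totals without mitochondrial and unplaced sequence, and with a prior count of 0.5. With IgG at 0 at each of them, these repeats add no support. Reads could be given to regions of 8 of the 9 genes, and of 7 with no flank or with regions of at least 100 unshared bases. No paired analysis was possible because each target had 1 library. Over regions of the H3K14ac-rich list alone, an alternative chosen after seeing the data, H4K8ac reads per kb came to 24.5 in Wwtr1, against 38.9, and to 2.53 in Yap1, as before. Depth limits the IgG comparison, since with 365999 reads in all a count of 0 allows up to 3.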
